A study of Mus musculus with 6 samples.

Results

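The miR-106b-25 cluster consists of 3 miRNA hairpins, miR-106b, miR-93 and miR-25, that lie within 1 intron of Mcm7. Its members were chosen by name, as both mature arms of each hairpin (mmu-miR-106b-5p, mmu-miR-106b-3p, mmu-miR-93-5p, mmu-miR-93-3p, mmu-miR-25-3p and mmu-miR-25-5p), which gave 6 of the 1907 mature mouse miRNAs listed in the data. The rule used names and no measured value, and all 6 passed the filter on low counts, as did 571 miRNAs in all.

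Small RNA was sequenced from the mouse embryonic stem cell (ESC) lines RB18 and RB20, both of C57BL/6 background, in 3 media with 1 library per line and medium, thus 6 libraries and n = 2 per medium. Both lines had been derived in R2i with LIF and passaged more than 10 times, on gelatin, and every medium held 1000 U/ml LIF, a cytokine that sustains ESC self-renewal. Serum medium held 15% fetal bovine serum. The other media were serum-free N2B27: 2i added PD0325901 (1 µM), which blocks MEK, and CHIR99021 (3 µM), which blocks GSK3, and R2i added PD0325901 (1 µM) and SB431542 (10 µM), which blocks the TGF-β receptor. Cells in 2i and R2i together are called ground state, as against serum ESCs. Cultures were pooled before each library was made, so the SD between the 2 libraries of a medium holds the line, the pool and the sequencing together, and a line that differs from the other in 1 medium cannot be told apart from a library that does.

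Mcm7 encodes a subunit of the replicative DNA helicase and is transcribed in proliferating cells, and the 3 hairpins are cut from its intron. A miRNA recognises its targets mainly through its seed, bases 2 to 8 of the mature strand, and one arm of a hairpin is usually retained in Argonaute while the other is degraded. The miR-17 family, to which miR-106b-5p and miR-93-5p belong, is known for repressing the cell cycle inhibitor Cdkn1a and for promoting cell cycle entry. The miR-25/92 family is known for repressing pro-apoptotic and cell cycle inhibitory genes such as Bcl2l11 and Cdkn1c. The paralogous clusters miR-17-92 and miR-106a-363 carry members of both families, and miR-17-92 is best known as an oncogenic cluster.

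The hairpins were placed on GRCm38, the build that the submitters' notes name mm10, by the GENCODE M21 annotation. All 3 lie on the minus strand of chromosome 5 within Mcm7, which spans 7840 bases, in intron 13 of the 14 introns of transcript Mcm7-201. In the direction of transcription they follow each other as Mir106b (chr5:138165737-138165818), Mir93 (chr5:138165523-138165610) and Mir25 (chr5:138165321-138165404). The gaps between them are 126 and 118 bases, and the cluster, gaps included, spans 498 of the intron's 748 bases. Mir93 and Mir25 are also inside an exon of Mcm7-202, a transcript annotated as a retained intron.

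**Figure D1:**
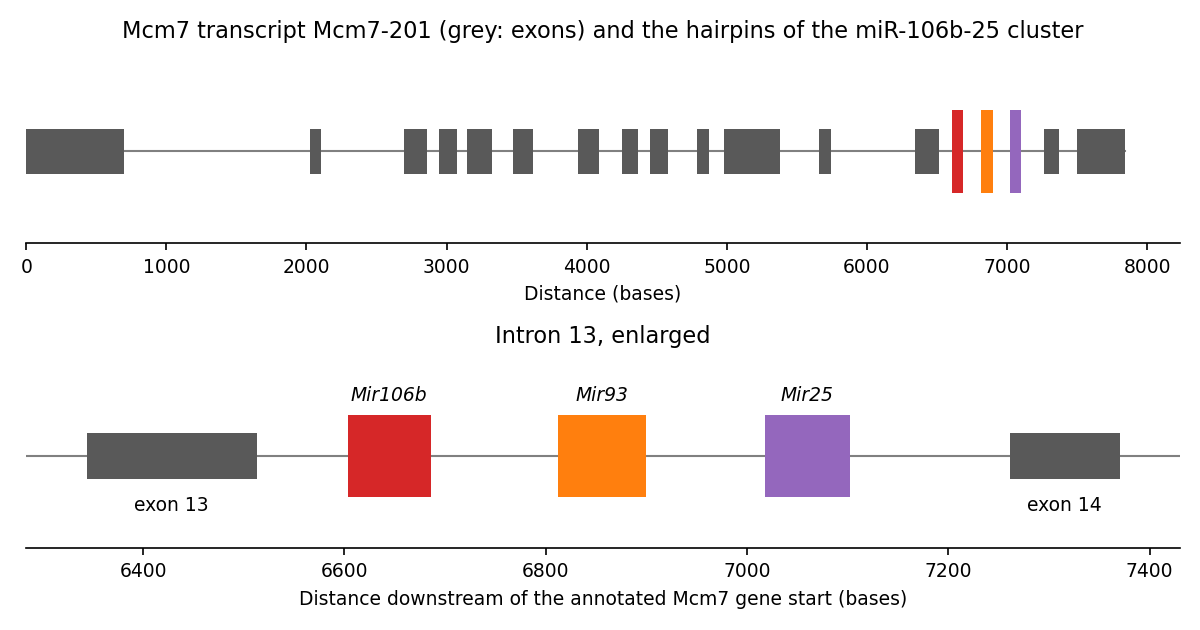
Map of Mcm7, drawn to scale in bases from its start in the direction of transcription, with the exons of Mcm7-201 and the 3 hairpins. Mir106b begins 6604 bases and Mir25 ends 7101 bases from the start of the gene, between the same pair of exons.

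The hairpins are shown because they place each arm, with the mature arms in capitals and the RefSeq sequences of GRCm38.p6 written 5′ to 3′.
Mir106b: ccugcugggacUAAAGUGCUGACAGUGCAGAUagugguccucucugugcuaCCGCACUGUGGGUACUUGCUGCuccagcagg
Mir93: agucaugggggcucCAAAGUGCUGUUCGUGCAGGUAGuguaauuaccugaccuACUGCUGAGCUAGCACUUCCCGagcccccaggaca
Mir25: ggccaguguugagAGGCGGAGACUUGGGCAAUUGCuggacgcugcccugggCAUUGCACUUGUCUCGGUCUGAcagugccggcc
In these lines the first stretch in capitals is the 5p arm and the second the 3p arm.

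The mature members are shown by their seeds, in capitals, since miRNAs with the same seed share many of their predicted targets.
miR-106b-5p: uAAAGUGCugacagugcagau
miR-93-5p: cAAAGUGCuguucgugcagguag
miR-25-3p: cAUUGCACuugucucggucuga
miR-106b-3p: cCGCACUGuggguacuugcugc
miR-93-3p: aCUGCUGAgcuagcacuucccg
miR-25-5p: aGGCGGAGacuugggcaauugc
The cluster therefore held 2 members with 1 seed (AAAGUGC), and 1 member with the miR-25/92 seed (AUUGCAC). Each of the other 3 seeds was held by no other listed miRNA with a sequence.

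The seed AAAGUGC was also that of the following miRNAs from the paralogous clusters, shown because their reads are set against those of miR-106b-5p and miR-93-5p.
miR-17-5p: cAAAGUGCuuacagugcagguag
miR-20a-5p: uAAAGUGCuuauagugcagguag
miR-20b-5p: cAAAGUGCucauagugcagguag
miR-106a-5p: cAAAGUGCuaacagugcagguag
The seed AUUGCAC was shared with 5 others.
miR-92a-3p: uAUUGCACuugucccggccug
miR-363-3p: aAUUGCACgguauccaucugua
miR-92b-3p: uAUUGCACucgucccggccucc
miR-32-5p: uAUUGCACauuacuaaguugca
miR-367-3p: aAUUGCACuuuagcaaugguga
Bases 3 to 9 of miR-106b-5p and miR-93-5p read AAGUGCU, which is the seed of several ESC miRNAs at a shift of 1 base.
miR-294-3p: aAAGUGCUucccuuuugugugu
miR-302b-3p: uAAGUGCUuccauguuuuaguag

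Members and paralogs are close in sequence. Compared along their shared length, miR-106b-5p differed from miR-106a-5p by 3 mismatches over 21 bases, miR-93-5p from miR-20b-5p by 3 over 23, and miR-25-3p from miR-92a-3p by 3 over 21. The minor arms had at least 6 mismatches to any other listed miRNA among those with a RefSeq sequence (1623 of 1907). How many mismatches the counting allowed is not given in the sources used here, so the sharing of reads between these 3 members and their paralogs was not tested.

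Total counts per library ranged from 1041858 to 3593356, with RB18 below RB20 in all 3 media, so that line and depth cannot be told apart. All 17 ESC marker miRNAs, the miR-290 to miR-295 and miR-302/367 families, were detected in every library and took 33.31% to 43.9% of the counts. Of 14 marker miRNAs of other cells, 10 to 12 had at least 1 count and 3 to 6 were at or under 3 counts, with a summed share of 0.2921% to 0.3336% in serum and 0.3236% to 0.4544% in the ground-state libraries. miR-143-3p, a fibroblast marker, had the most counts of the 14 in each library, while miR-223-3p, a myeloid marker, had 0 counts in all 6. For miR-143-3p these were 2407 and 3787 in serum, 6408 and 11069 under 2i, and 2472 and 7722 under R2i (RB18 first). Marker counts here are not scaled by depth, and R2i RB18 had 1041858 total counts against 1744187 in serum RB18. Of the muscle markers, 2 had more counts in serum, with 52 and 55 counts of miR-1a-3p against 0 to 9 in ground state and 93 and 36 of miR-133a-3p against 1 to 5. Some markers of other cells went the other way. The fibroblast marker miR-199a-3p had 58 and 92 counts in serum against 124 to 278 in ground state. The blood marker miR-451a had 0 and 3 against 22 to 66. Other blood markers did not follow it. For miR-142a-3p the counts were 453 and 518 in serum, 701 and 402 under 2i, and 107 and 91 under R2i. Those of miR-150-5p were 1248 and 855 in serum against 824 to 1520 in ground state. The part of other cells in the values below was not tested.

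Levels are given as TMM-normalized CPM, that is counts scaled by the library total and edgeR's composition factor. The mature strands are 21 to 23 bases long, and counts were compared between members without a length correction. How evenly different sequences are captured as reads was not tested. Ranks, arm ratios and seed shares below are therefore those of counts. The cluster was abundant, with 2.411% to 3.189% of all miRNA counts in each library. Its summed level was 23026 and 31959 CPM in serum (RB18 and RB20), 28532 and 32773 under 2i, and 26401 and 29362 under R2i, so the media overlapped.

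The major arms were miR-93-5p, miR-25-3p and miR-106b-5p, and they stood in this order in every library. mmu-miR-93-5p, a cell cycle promoting miR-17 family member, ranked 12 to 17 among the miRNAs of a library. Its level was 13489.9 and 16514 CPM in serum, 18095 and 21441 under 2i, and 14511 and 17973 under R2i, with RB18 first throughout. The 2i libraries were above all others, and R2i overlapped with serum, although by library totals R2i (16236 and 17486 CPM) was above serum (14125 and 14849). RB20 was above RB18 in each medium, by 0.25 to 0.31 on the log2 scale.

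mmu-miR-25-3p, the miR-25/92 family member, ranked 21 to 23. It measured 7581 and 13176 CPM in serum, 7950 and 8837 under 2i, and 9535 and 8958 under R2i. Serum RB20 was the highest and serum RB18 the lowest of the 6 libraries, so that serum enclosed both other media. The SD in serum was 3956 CPM on a mean of 10378 (n = 2), against 627.3 in 2i and 408.5 in R2i.

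mmu-miR-106b-5p, the other miR-17 family member, ranked 55 to 77. Its level was 1239 and 1212 CPM in serum, 1707 and 1646 under 2i, and 1497 and 1507 under R2i. On this scale the 3 media did not overlap, with 2i highest and serum lowest, but by library totals R2i RB18 (1675 CPM) was above 2i RB20 (1602 CPM), so that 2i and R2i overlapped. Per medium this gave 1225 ± 19.1 CPM in serum, 1677 ± 42.6 under 2i and 1502 ± 6.90 under R2i (mean ± SD, n = 2). The narrow spread was that of the TMM scale, since by library totals the serum libraries were at 1297 and 1089 CPM and the R2i libraries at 1675 and 1466.

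The minor arms ranked 93 to 111 (miR-106b-3p), 155 to 175 (miR-25-5p) and 277 to 326 (miR-93-3p), and no 2 neighbours in the order of the 6 members overlapped over the libraries. mmu-miR-106b-3p, the partner of miR-106b-5p, measured 449.6 and 783.3 CPM in serum, 568.6 and 605.8 under 2i, and 603.0 and 652.2 under R2i. As for miR-25-3p, the serum libraries were the lowest and the highest of the 6. mmu-miR-25-5p measured 237.1 and 244.4 CPM in serum, 169.1 and 197.2 under 2i, and 220.5 and 218.8 under R2i, with 2i lowest and serum highest. mmu-miR-93-3p measured 29.57 and 29.74 CPM in serum, 42.76 and 45.19 under 2i, and 35.17 and 53.49 under R2i. It rested on 41 to 187 counts per library, the fewest of the 6 members, and all ground-state libraries were above serum.

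**Figure D2:**
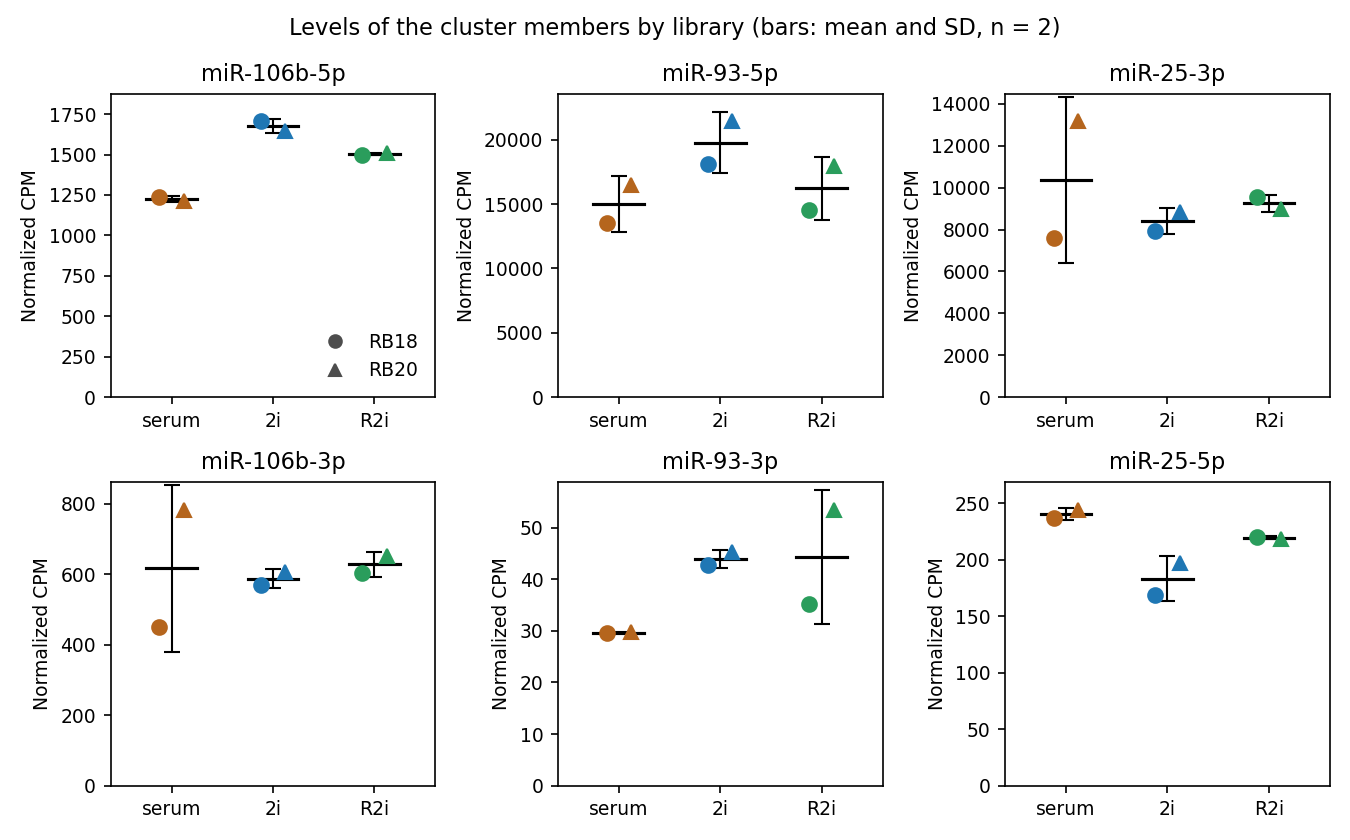
Level of each member in TMM-normalized CPM (y axis, from 0) in the 3 media, with 1 point per library marked by cell line, and the mean and SD of the 2 libraries as bar and error bar. miR-106b-5p separates by medium on this scale (by library totals 2i and R2i overlap), while the serum points of miR-25-3p (7581 and 13176 CPM) and miR-106b-3p (449.6 and 783.3 CPM) enclose those of the other media.

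The first question was whether the members differed between ground-state and serum ESCs. In the comparison of 2i with serum, 0 of the 6 were called at an adjusted p under 0.01 and more than 2-fold (edgeR's quasi-likelihood test, Benjamini-Hochberg over 571 miRNAs), against 34.2% of all tested miRNAs. For R2i against serum 0 of 6 were called, against 30.6%. With the ground-state media averaged, 0 of 6 were called against 37.0%. At an unadjusted p under 0.05 the counts were 0, 0 and 1 of 6, against 57.6%, 49.6% and 57.6% of all tested miRNAs. DESeq2 and limma also called 0 members in each of these. In bulk RNA, fewer cells of a type and less RNA per cell cannot be told apart. The 3 comparisons share the serum libraries, and the last one is the mean of the other two.

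Among the major arms, miR-106b-5p had a log2 fold change of 0.45 in 2i (SE 0.21, 95% interval -0.04 to 0.95, edgeR adjusted p = 0.111) and 0.29 in R2i (SE 0.21, adjusted p = 0.315). miR-93-5p had 0.40 in 2i (SE 0.24, interval -0.15 to 0.95, edgeR adjusted p = 0.194) and 0.11 in R2i (SE 0.24, adjusted p = 0.746). Both miR-17 family members thus had positive estimates whose intervals reached 0. miR-25-3p had -0.31 in 2i (SE 0.29, interval -0.98 to 0.37, edgeR adjusted p = 0.411) and -0.17 in R2i (adjusted p = 0.697). None of these intervals reached a 2-fold change, a log2 value of 1, in either direction. In 2i they came close to it, miR-25-3p on the lower side (-0.98) and miR-106b-5p and miR-93-5p on the upper side (0.95 each).

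The minor arm of miR-93 had the largest estimates of the cluster in this fit, 0.57 in 2i (SE 0.27, 95% interval -0.06 to 1.20, edgeR adjusted p = 0.115) and 0.61 in R2i (SE 0.27, interval -0.03 to 1.24, adjusted p = 0.111). Averaged over the ground-state media it was 0.59 (interval 0.03 to 1.15), with an unadjusted p of 0.0414 and an edgeR adjusted p of 0.0737. This was the single member under 0.05 before adjustment. Its estimate in R2i was 0.25 without R2i RB20, below that of miR-106b-5p (0.29), and 0.85 without R2i RB18, and in ground state the corresponding values were 0.42 and 0.73. miR-25-5p had -0.39 in 2i (SE 0.23, edgeR adjusted p = 0.18) and -0.13 in R2i. miR-106b-3p had -0.07 and 0.03, with SEs of 0.30.

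**Figure D3:**
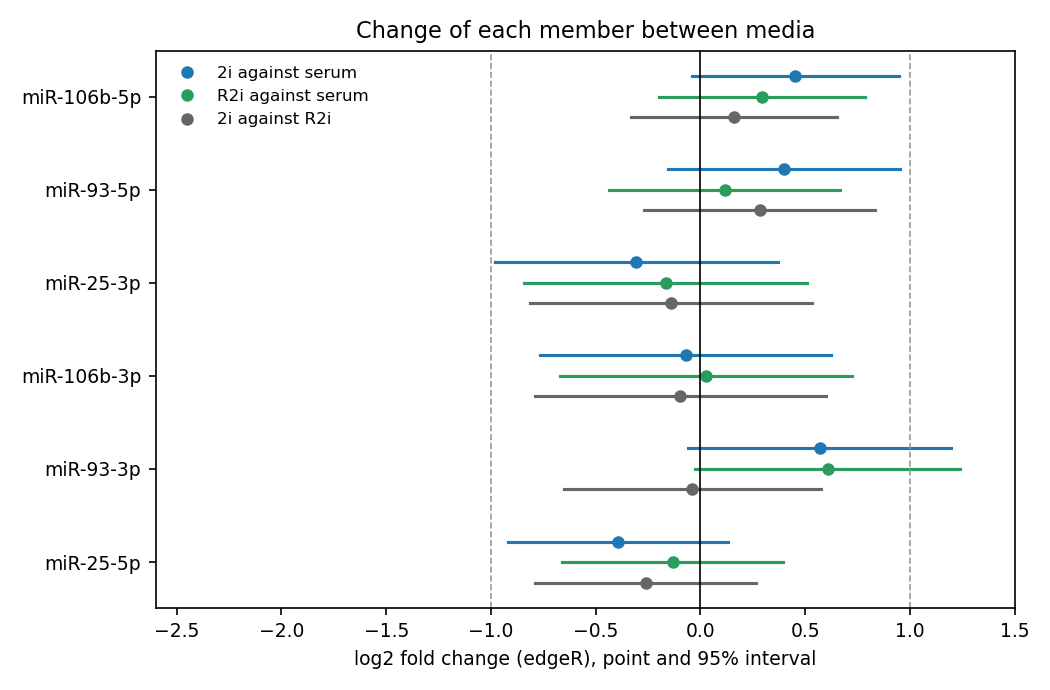
Log2 fold change of each member (x axis) with its 95% interval from edgeR for 2i against serum, R2i against serum and 2i against R2i, with dashed lines at a 2-fold change. Estimates lie between -0.39 and 0.61, and 0 of 6 members were called in each comparison.

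Over the 6 members, the log2 fold change had a median of 0.16 in 2i, against -0.03 over all tested miRNAs, and 0.07 in R2i, against -0.07. Positive estimates were seen for 3 members in 2i and for 4 in R2i. The medians turned on single libraries. Without serum RB18 they were 0.03 in 2i and 0.02 in R2i, below those of all miRNAs (0.06 in each), without serum RB20 they were 0.36 and 0.23, and without R2i RB20 the median in R2i was -0.04. Scaling by library totals in place of TMM moved the median over all miRNAs in R2i from -0.07 to 0.03 and that of the members from 0.07 to 0.19.

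Without a model, the serum libraries did not overlap with the 4 ground-state libraries for 3 members, miR-106b-5p and miR-93-3p (ground state higher) and miR-25-5p (ground state lower). Among all tested miRNAs 61.5% did not overlap, 29.1% higher and 32.4% lower in ground state. This separation depended on the scaling for 2 members: by library totals miR-93-5p was higher without overlap and miR-25-5p overlapped, and in the authors' normalization miR-25-5p overlapped as well. Over all tested miRNAs the share without overlap was 61.3% by library totals (32.0% higher, 29.2% lower) and 60.8% in the authors' normalization (30.3% higher, 30.5% lower). For miR-106b-5p and miR-93-3p it held under all 3 scalings.

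The second question was whether the 2 ground-state media differed from each other. For 2i against R2i, 0 of 6 members were called, against 0.350% of all tested miRNAs, and 0 of 6 were under an unadjusted p of 0.05, against 18.2%. DESeq2 and limma called 0 members here too. The largest estimates were 0.28 for miR-93-5p (95% interval -0.27 to 0.83, edgeR adjusted p = 0.578) and -0.26 for miR-25-5p (interval -0.79 to 0.27, adjusted p = 0.598). The other 4 lay between -0.14 and 0.16.

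The lines did not give the same picture for every member. In RB18, miR-25-3p was higher in ground state than in serum by 0.20 on the log2 scale, whereas in RB20 it was lower by a difference of -0.57. miR-106b-3p was likewise at 0.38 in RB18 and -0.32 in RB20. Opposite directions in the 2 lines, in both ground-state media, were seen for these 2 of the 6 members and for 7.88% of all tested miRNAs. For the other 4 the lines had the same sign, with 0.37 and 0.38 for miR-106b-5p, 0.26 and 0.25 for miR-93-5p, 0.39 and 0.72 for miR-93-3p, and -0.30 and -0.23 for miR-25-5p.

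Both opposite members were higher in RB20 than in RB18 in serum, each by 0.80 on the log2 scale. In 2i and R2i the same line differences were 0.15 and -0.09 for miR-25-3p and 0.09 and 0.11 for miR-106b-3p. Serum RB20 was also the library with the lowest share of ESC markers (33.31%) and the highest level of miR-92a-3p, the paralog closest in sequence to miR-25-3p, at 162397 CPM against 85647 in serum RB18. The part of these in the values of miR-25-3p and miR-106b-3p was not tested. Without serum RB20, the estimate of miR-25-3p turned from -0.24 to 0.17 for ground state against serum, and that of miR-106b-3p from -0.02 to 0.38.

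Strand choice was next compared as the counts of the major arm per count of the minor arm. The 3 hairpins differed widely in this ratio. For miR-93, 336 to 555.2 counts of 5p were found per count of 3p, so that 99.7% to 99.82% of the hairpin's counts came from 5p. For miR-25, 31.97 to 53.91 counts of 3p were found per count of 5p, or 96.97% to 98.18%.

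miR-106b was the least one-sided hairpin. Its 5p arm made up 73.37% and 60.74% of the hairpin's counts in serum, 75.01% and 73.1% under 2i, and 71.28% and 69.79% under R2i. Serum RB20 was the lowest, with 1.547 counts of 5p per count of 3p against 2.31 to 3.002 in the other libraries. The seeds of the 2 arms of miR-106b differ entirely, as the sequences above show, and the lower of its arms was at 449.6 to 783.3 CPM.

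**Figure D4:**
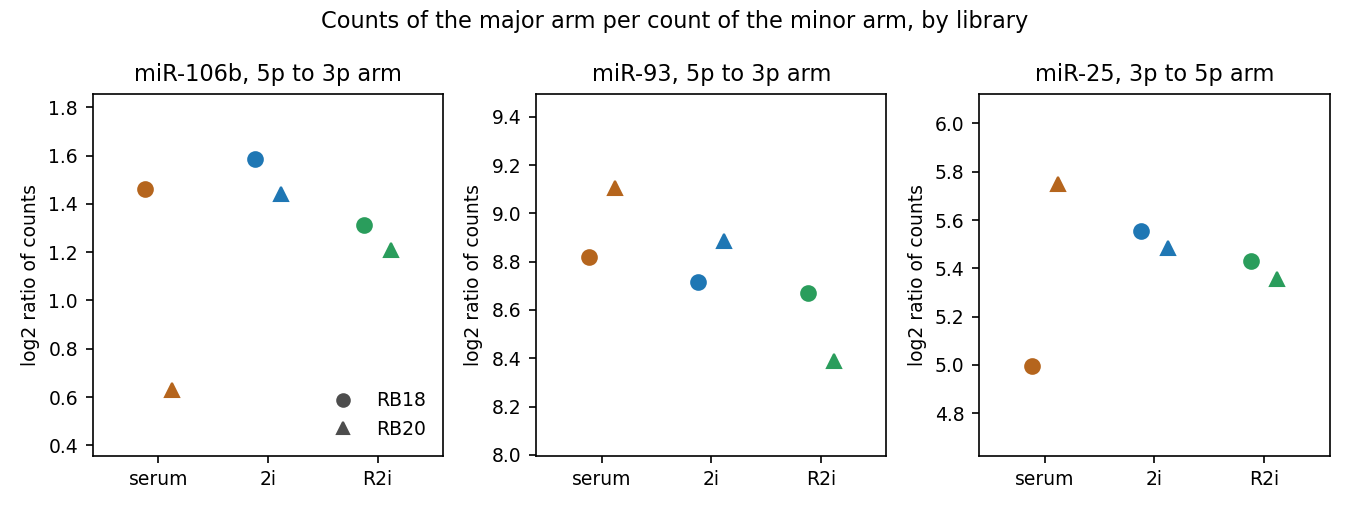
Log2 of the counts of the major arm per count of the minor arm (y axis, with its own range in each panel) in each library for the 3 hairpins, with 1 point per library, coloured by medium and shaped by cell line. For miR-106b, serum RB20 lies apart at 0.63, while the other libraries lie at 1.21 to 1.58.

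Arm ratios of serum and ground state were compared over libraries, with 0.133 as the smallest p that this design allows, so that none could reach 0.05. The difference in mean log2 ratio was 0.34 for miR-106b (two-sided exact permutation test, p = 0.533), -0.30 for miR-93 (exact p = 0.267) and 0.08 for miR-25 (exact p = 0.667), with 2 serum and 4 ground-state libraries. Over the 8 measures tested in this way, including the balances and shares below, no Benjamini-Hochberg adjusted p was under 0.427. The sign for miR-106b depended on serum RB20, without which the difference was -0.08, and that for miR-25 on serum RB18, without which it was -0.30. For miR-93 the difference was -0.15 without serum RB20 and -0.44 without serum RB18.

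Although the hairpins lie in 1 intron, the proportions between the counts of the major arms were not constant over the libraries. With 1 library per line and medium, a change in proportion cannot be told apart from the spread between libraries. miR-93-5p supplied 58.59% and 51.67% of the cluster's counts in serum, 63.42% and 65.42% under 2i, and 54.96% and 61.21% under R2i. miR-25-3p supplied 32.92% and 41.23% in serum, 27.86% and 26.97% under 2i, and 36.12% and 30.51% under R2i, and miR-106b-5p 3.791% to 5.982%. The 2i libraries had the highest miR-93-5p and the lowest miR-25-3p shares of the 6.

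On the log2 scale, the ratio of miR-25-3p to miR-93-5p was -0.83 and -0.33 in serum, -1.19 and -1.28 under 2i, and -0.61 and -1.01 under R2i. Ground state minus serum was -0.44 (exact permutation p = 0.267), -0.19 without serum RB20 and -0.69 without serum RB18, and R2i RB18 lay between the serum libraries. The ratio of miR-25-3p to miR-106b-5p differed by -0.56 (exact p = 0.267), or by -0.14 without serum RB20 and -0.97 without serum RB18, and that of miR-93-5p to miR-106b-5p by -0.12 (exact p = 0.533), which turned to 0.05 without serum RB20 and was -0.28 without serum RB18. The last ratio had the smallest range of the 3, from 3.277 to 3.769 on the log2 scale, and was higher in RB20 than in RB18 in each medium.

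The members' levels were also compared over the 6 libraries as a description, on log2 CPM, where libraries share line, medium and depth. miR-25-3p and miR-106b-3p had a Pearson r of 0.89, and both had serum RB20 as their highest library. miR-106b-5p and miR-25-5p had an r of -0.90. The arms of 1 hairpin had an r of -0.05 for miR-106b, 0.72 for miR-93 and 0.50 for miR-25. Against the sum of the other 5 members, r ranged from -0.23 for miR-25-5p to 0.80 for miR-106b-3p.

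Outside the cluster, the miRNAs with the pattern most like its summed level were miR-182-5p (r = 0.98 over 6 libraries), miR-210-3p (r = 0.96) and miR-140-3p (r = 0.92). These were the 3 of 565 tested miRNAs with an r above 0.9, and the median r was 0.08. miR-182-5p measured 58947 and 96602.5 CPM in serum, 81888 and 104633 under 2i, and 65800.2 and 83567 under R2i. As for the cluster sum, RB20 was above RB18 in every medium on the TMM scale. For the cluster this order turned in R2i by library totals, with 2.954% of counts in RB18 and 2.857% in RB20.

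The cluster was the main source of the counts with the AAAGUGC seed. miR-106b-5p and miR-93-5p together supplied 69.63% and 68.56% of the counts with this seed in serum, 78.28% and 82.46% under 2i, and 69.89% and 78.56% under R2i. miR-93-5p alone accounted for 63.36% to 76.58%. The share in R2i RB18 (95% Wilson interval 69.34% to 70.44%, counting error only) overlapped with that in serum RB18 (69.17% to 70.09%), and the other ground-state libraries were above both serum libraries. The mean was 69.1% ± 0.759 in serum (SD, n = 2) and 77.3% ± 5.29 in ground state (SD, n = 4), a difference of 8.21 percentage points. Its two-sided exact permutation p of 0.133 was the smallest the design allows, and the adjusted p was 0.427.

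Both sources of the seed entered this share. The cluster's part was 14729 and 17726 CPM in serum and 16007 to 23087 CPM in ground state, a log2 ratio of means of 0.27. The other miRNAs with the seed summed to 6424 and 8130 CPM in serum and 4912 to 6895 in ground state, a log2 ratio of -0.36. Of these, 4 were tested and edgeR called 0 in any comparison, with 1 lower at an unadjusted p under 0.05 for ground state against serum, beside 37.0% called and 57.6% under that p among all tested miRNAs. For ground state against serum the estimates were -0.08 for miR-17-5p, -0.28 for miR-20a-5p, -0.57 for miR-106a-5p and -0.78 for miR-20b-5p (edgeR adjusted p = 0.774, 0.272, 0.0868 and 0.0329). The last-named was under 0.05 but not 2-fold. Another listed miRNA with this seed, miR-6383, had 0 counts in every library.

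In the miR-25/92 family the cluster was a minor source of the counts. miR-25-3p supplied 7.649% and 7.254% of the counts with the seed AUUGCAC in serum, 13.65% and 14.94% under 2i, and 12.25% and 12.21% under R2i. All ground-state libraries were above both serum libraries, with means of 7.45% ± 0.280 (SD, n = 2) in serum and 13.3% ± 1.302 (SD, n = 4) in ground state. The difference of 5.81 points had a two-sided exact permutation p of 0.133, the smallest possible, and an adjusted p of 0.427.

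The total of this family was mostly miR-92a-3p. This miRNA, the mature product of 2 genes in the paralogous clusters, took 86.42% and 89.4% of the family's counts in serum and 74.54% to 81.07% in ground state. It fell in 2i and averaged over ground state, the latter with a log2 fold change of -1.26 (edgeR adjusted p = 0.00419). The level of miR-25-3p over the same libraries had a log2 ratio of means of -0.24. With miR-92a-3p left out of the total, the share of miR-25-3p was 56.31% and 68.45% in serum and 54.56% to 64.74% in ground state, and the difference turned to -2.61 points.

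**Figure D5:**
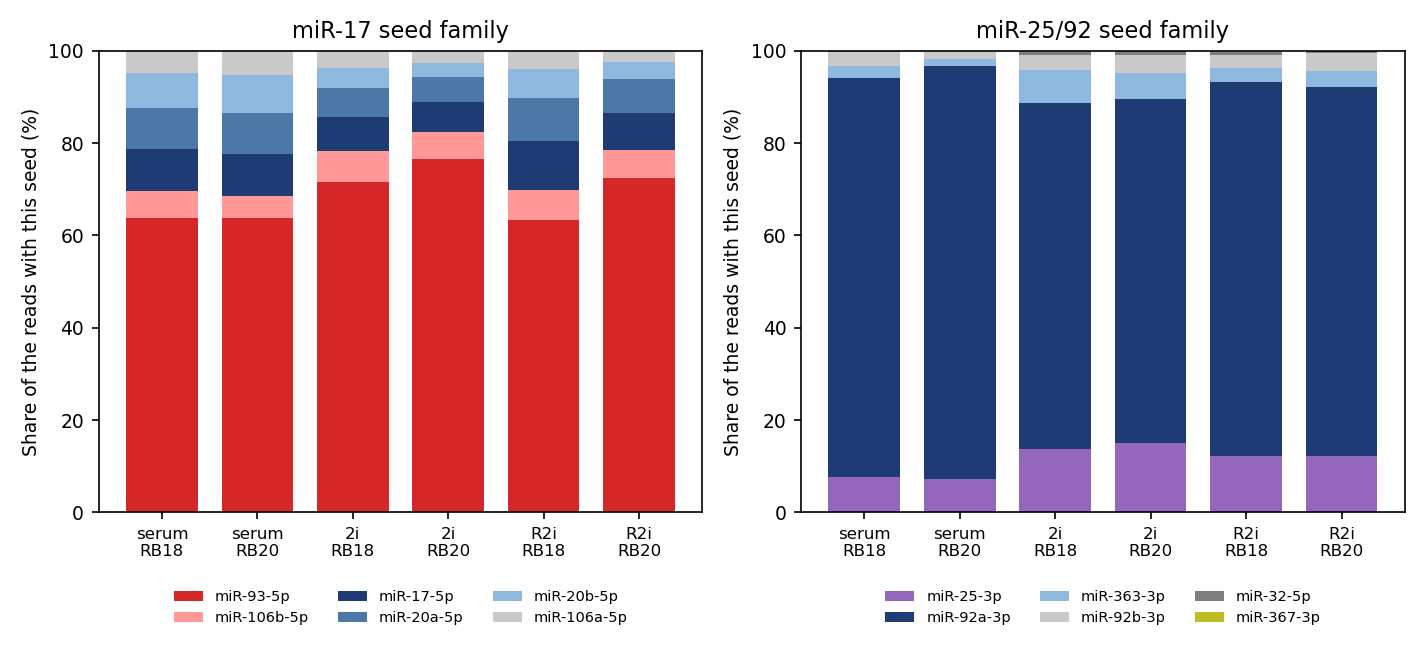
Stacked shares (y axis, percent) of the counts with a given seed that each miRNA supplied, 1 bar per library, for the seed of miR-106b-5p and miR-93-5p (left) and that of miR-25-3p (right), with members of the cluster at the bottom. The cluster's part is 68.56% to 82.46% on the left and 7.254% to 14.94% on the right, where miR-92a-3p takes 74.54% to 89.4%.

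Of the rest of the family, miR-367-3p of the ESC-specific miR-302/367 cluster was called higher in ground state (log2 fold change 2.21, edgeR adjusted p = 0.00595) from a low level of 21.9 and 32.22 CPM in serum. By medium, miR-367-3p was called in R2i (2.79, edgeR adjusted p = 0.00356) but not in 2i (1.62, edgeR adjusted p = 0.0326). Its level was 278.8 and 102.1 CPM under R2i and 105 and 62.29 under 2i, with RB18 first. For ground state against serum, the others were lower in estimate. miR-32-5p had 0.69 (edgeR adjusted p = 0.0429), miR-363-3p 0.15 and miR-92b-3p -0.39, and these 3 were not called.

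The paralogous clusters were compared as a whole, all 22 mature miRNAs of miR-17-92 and miR-106a-363, and 22 of 22 were tested. For ground state against serum 0 were called higher and 2 lower, miR-92a-3p and a partner strand, miR-92a-2-5p (-1.51, edgeR adjusted p = 0.00401), against 37.0% called in either direction among all tested miRNAs. The partner strand from the other gene, miR-92a-1-5p, was not called (-0.51, edgeR adjusted p = 0.0841). It was the more abundant, at 1487 to 3079.5 CPM against 46.41 to 218.6 for miR-92a-2-5p. Negative estimates were seen for 18 of 22, and the median was -0.34, against -0.02 over all miRNAs and 0.12 in the miR-106b-25 cluster, which was 0.02 without serum RB18 (all miRNAs 0.07) and 0.33 without serum RB20. In R2i against serum edgeR called 0 of 22, against 30.6% of all tested miRNAs, with 0 higher and 4 lower at an unadjusted p under 0.05, against 49.6%, and in 2i against serum 2 were called lower, against 34.2% called in either direction. The difference between the miR-106b-25 cluster and its paralogs was not tested as such.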

How the data were processed

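Small RNA libraries of 2 mouse ESC lines in 3 media were analysed (6 libraries, 1041858 to 3593356 counts each). The authors deposited whole-number counts per mature miRNA without normalization, and a second table of log2 values for 1233 miRNAs that had 1 or more counts. That deposited log2 table was recomputed as log2(count/size factor + 1) to within 0.01 for 100% of values. The submitters' processing notes name FastQC 0.11.5, cutadapt 1.3, Bowtie 1.1.2, featureCounts 1.5 and mm10. Handling of reads that match several miRNAs is not given in the sources used here. Libraries were grouped by medium as per the labels. The number of unused columns of values was 0.

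The counts entered edgeR 4.0.16 under R 4.3.3 (TMM, filterByExpr at its defaults of 10 counts and 15 in total, quasi-likelihood test, 1 coefficient per medium over all 6 libraries, biological coefficient of variation 24.6%). Ground state was the mean of 2i and R2i. A miRNA was called at an adjusted p under 0.01 and more than 2-fold. DESeq2 1.42.0, limma 3.58.1 on the deposited log2 values, other scalings, no filter on low counts, fits to 2 media, the line as a block and leaving out each library were alternatives. The scripts were tested on simulated data. Ratios and shares were compared by exact permutation over libraries, with a pseudocount of 0.5 counts in arm ratios (0 and 1 tried). Shares have 95% Wilson intervals, which hold only counting error, since reads are not molecules. A level of 3 counts was taken as the detection limit. The authors describe each library as a pool of independently grown cultures, which the labels do not state. There was 1 library per line and medium, so p-values measure the spread between these libraries.

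The 3 libraries of a line, 1 per medium, come from the same cell line, which pairs them across media. Differences between the lines correlated at 0.21 between serum and 2i, -0.13 between serum and R2i, and 0.22 between 2i and R2i (571 miRNAs).

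The rule for named miRNAs was all 6 members, the miRNAs of both paralogous clusters, every other listed miRNA with the seed of miR-106b-5p or miR-25-3p, and the 3 miRNAs most like the cluster sum. The ESC miRNAs whose sequences are shown at a shifted seed come from the marker list. Members and lists were chosen with earlier results of these data known. The test of the difference between lines and the within-line values of the balances and shares were chosen after seeing the data. RefSeq gave mature sequences for 1623 of the 1907 names, and for 6 of 6 members. Permutation tests used scipy 1.17.1 and figures matplotlib 3.10.9, in Python 3.11.15 with pandas 2.3.3 and numpy 2.4.6.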

Additional observations from a re-analysis of the deposited data

Results flagged for a closer look

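The estimates of miR-25-3p and of miR-106b-3p from serum to ground state had opposite signs in the 2 lines, with 1 library per line and medium. The test of this difference was chosen after the signs were seen, so its unadjusted p-values are not independent of that choice. Tested as an interaction in a model with medium and line, which leaves 1 residual degree of freedom, the change in RB20 minus that in RB18 was -0.77 on the log2 scale for miR-25-3p (SE 0.23, unadjusted p = 0.0158, edgeR adjusted p = 0.152) and -0.70 for miR-106b-3p (SE 0.26, unadjusted p = 0.0342, edgeR adjusted p = 0.203). Both failed the adjustment. Among all 571 tested miRNAs, 21.2% were under an unadjusted p of 0.05 and 0.00% under an adjusted p of 0.05 in this test. The direction was opposite in 2 of 2 lines for each, and in serum RB20 was above RB18 by 0.80 for each, with 1 library per line.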

How the results depend on the processing

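Each log2 fold change was recomputed under 13 alternatives (12 for ground state against serum). 0 of 6 members were called under every alternative, the line as a replicate block included, so the block changed no call of a member. The direction of miR-106b-3p was not settled for ground state against serum: from -0.02 it went to 0.05 with DESeq2 and with its size factors in edgeR (0.053 each), 0.067 by library totals, 0.021 without the filter on low counts, 0.075 with limma and 0.016 with the line as a block. miR-25-5p in R2i against serum was 0.008 when only these media were fitted. Leaving out 1 library at a time gave -0.26 to 0.38 for miR-106b-3p and -0.47 to 0.17 for miR-25-3p in ground state, -0.31 to 0.33 and -0.54 to 0.092 in 2i, and -0.21 to 0.43 and -0.40 to 0.24 in R2i. miR-93-5p in R2i ranged from -0.047 (without R2i RB20) to 0.27, and miR-93-3p in 2i against R2i from -0.25 to 0.34 (without R2i RB20). miR-25-3p was positive against serum in each of these comparisons when serum RB20 was left out. The arm log2 ratios differed by -0.075 to 0.757 for miR-106b and -0.295 to 0.459 for miR-25, and the log2 ratio of miR-93-5p to miR-106b-5p by -0.278 to 0.046. The seed shares kept their direction, at 6.49 to 10.67 points for the miR-17 family and 5.26 to 6.17 for the miR-25/92 family, but leaving miR-92a-3p out of the total turned the latter to -2.61. The cause of these reversals was not tested. miR-93-3p in ground state reached an adjusted p of 0.036 at a log2 fold change of 0.73 without R2i RB18 and 0.197 at 0.42 without R2i RB20, both under 2-fold.

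With 2 libraries per medium, no permutation over 2 serum and 4 ground-state libraries gives a two-sided p under 0.133, so the model's p-values rest on a spread that edgeR estimates over many miRNAs. The intervals of the members against serum reach log2 values from -0.98 to 1.24. Line, depth and library cannot be told apart for miR-25-3p and miR-106b-3p.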
